A study of Mus musculus with 22 samples.

Results

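The genes described here are 10 components of cytokine signalling through JAK3, STAT3 and STAT5: the kinase gene Jak3, the transcription factor genes Stat3, Stat5a and Stat5b, the feedback inhibitor genes Cish, Socs1, Socs2 and Socs3, and the kinase genes Pim1 and Pim2. They were taken by symbol from a table of 49671 genes, and all 10 were among the 11905 genes that passed the filter on low counts. The cells were wild-type (WT) mouse TH2 cells, T helper cells polarized in culture toward the type 2 cytokine programme and harvested on day 5. The mice were male and female Balb/c, 6 to 8 weeks old when obtained, and were bred on diets with 400, 1000 or 4000 IU of vitamin D3 per kg. In 11 libraries the cells had received calcitriol, the active hormone made from vitamin D, at 100 nM for the last 24 hours, and in 11 they had received 2% ethanol as vehicle. Whether the calcitriol cultures also held ethanol, and which mouse, sex, diet or culture each library came from, is not given in the sources used here, so p-values measure only the spread between these libraries, part of which may be technical. Replicate numbers follow the order of deposit, come from no label and were not used to pair libraries, although some libraries of the same number resembled each other across the groups.

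As background, cytokines such as IL-2, IL-4 and IL-7 bind receptors that share the common gamma chain, to which the kinase JAK3 is attached. The activated JAKs phosphorylate STAT proteins, which dimerize, enter the nucleus and bind sites with the core TTCNNNGAA. In T cells STAT5 is the main STAT downstream of IL-2, and STAT3 the main one downstream of IL-6, IL-10 and IL-21. Cish and the Socs genes are induced by cytokines and encode SH2-domain proteins that dampen receptor and JAK activity, in part through an elongin-cullin ubiquitin ligase. Pim1 and Pim2 are cytokine-induced as well and encode constitutively active serine/threonine kinases that promote survival and growth.

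The STAT core is shown for Cish and Socs3 because, of the members with a promoter window, only these held it, and because each was the gene most like the other across libraries, as described further on. RefSeq promoter windows (build GRCm38.p6, 250 bases before to 50 after an annotated start) were matched by symbol for 9 of the 10 genes, all but Socs2, in 12 windows. Capitals mark TTCNNNGAA, 5′ to 3′ on the gene's strand.
Cish, chr9:107296654-107296683, plus strand: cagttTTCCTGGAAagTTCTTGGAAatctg
Socs3, chr11:117969452-117969616, minus strand: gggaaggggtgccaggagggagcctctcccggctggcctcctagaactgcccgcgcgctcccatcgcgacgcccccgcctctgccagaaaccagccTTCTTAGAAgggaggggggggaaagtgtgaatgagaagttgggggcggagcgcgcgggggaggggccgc
Counted from 1 at the RefSeq start, the matches of Cish began at positions 1 and 12, side by side at that start, and the match of Socs3 began at position -154. Both genes begin upstream of these RefSeq starts in the GENCODE M21 annotation, so the matches lie within the gene spans given below. TTCNNNGAA, which reads the same on both strands, was present in 8.3% of 32851 windows of this length, and at least 2 copies were present in 0.457%. The form with 4 free bases in place of 3, also the same on both strands, was present in 6.95% of all windows, and the consensus of the DR3 vitamin D response element, searched on both strands, in 0.0396%. Neither had a match in the 12 windows. These matches describe letters only.

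The libraries held 3214171 to 20258430 counts (median 7504710), and a member had between 127 (Pim2) and 12805 (Stat5b) counts in a library. Vehicle replicates 1 and 2 and calcitriol replicates 1 and 2 stood apart from the other 18 libraries in overall expression, and all 4 were below the median depth. Levels are given in CPM, here counts relative to library size after TMM scaling, which adjusts for library composition. The 8 T helper 2 markers summed to 1977 to 2333 CPM with vehicle and to 1992 to 2200 CPM with calcitriol; Cd3d, Cd3e and Cd3g rose, Cd4 and Il13 fell, and the other 3 were not called. The 6 markers of CD8 T and NK cells summed to 8.54 to 32.4 CPM against 29.8 to 174 CPM. Only 2 of them passed the filter on low counts and were tested. Of these, Gzma alone was called, at 8.80 ± 7.77 against 77.8 ± 43.0 CPM. Ncr1 was at 0 in every library and Cd8a stayed at or below 0.289 CPM. Markers of B cells (1.69 to 7.16 against 1.56 to 5.43 CPM, 5 genes), monocytes and macrophages (4.29 to 9.45 against 6.18 to 13.9 CPM, 6 genes), dendritic cells (1.27 to 6.26 against 1.57 to 5.58 CPM, 5 genes, Clec9a at 0) and mast cells and basophils (0.0964 to 1.10 against 0 to 1.14 CPM, 5 genes) were low, and none of those tested was called. The filter on low counts left 1 tested gene each for B cells, monocytes and macrophages, and dendritic cells. It left 0 for mast cells and basophils, and genes not tested could not be called. The part of these cell types in the results was not tested. In bulk RNA, fewer cells of a type and less RNA per cell cannot be told apart.

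Of the 10 genes, 2 rose with calcitriol (Socs3 and Pim1), 2 fell (Socs2 and Pim2) and 6 were not called by edgeR's quasi-likelihood test at an adjusted p of 0.05 over all tested genes. Over all 11905 genes 31.5% were called, 16.1% higher and 15.5% lower, so the 4 called members were close to the background share. In none of the 10 did the groups separate without overlap, which 4.36% of all genes did (2.77% with calcitriol higher and 1.59% with it lower). The median log2 change was -0.03 over the members and -0.01 over all genes, and the median size of the change was 0.13 and 0.15. Both the inhibitors and the PIM kinases had 1 member that rose and 1 that fell.

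**Figure D1:**
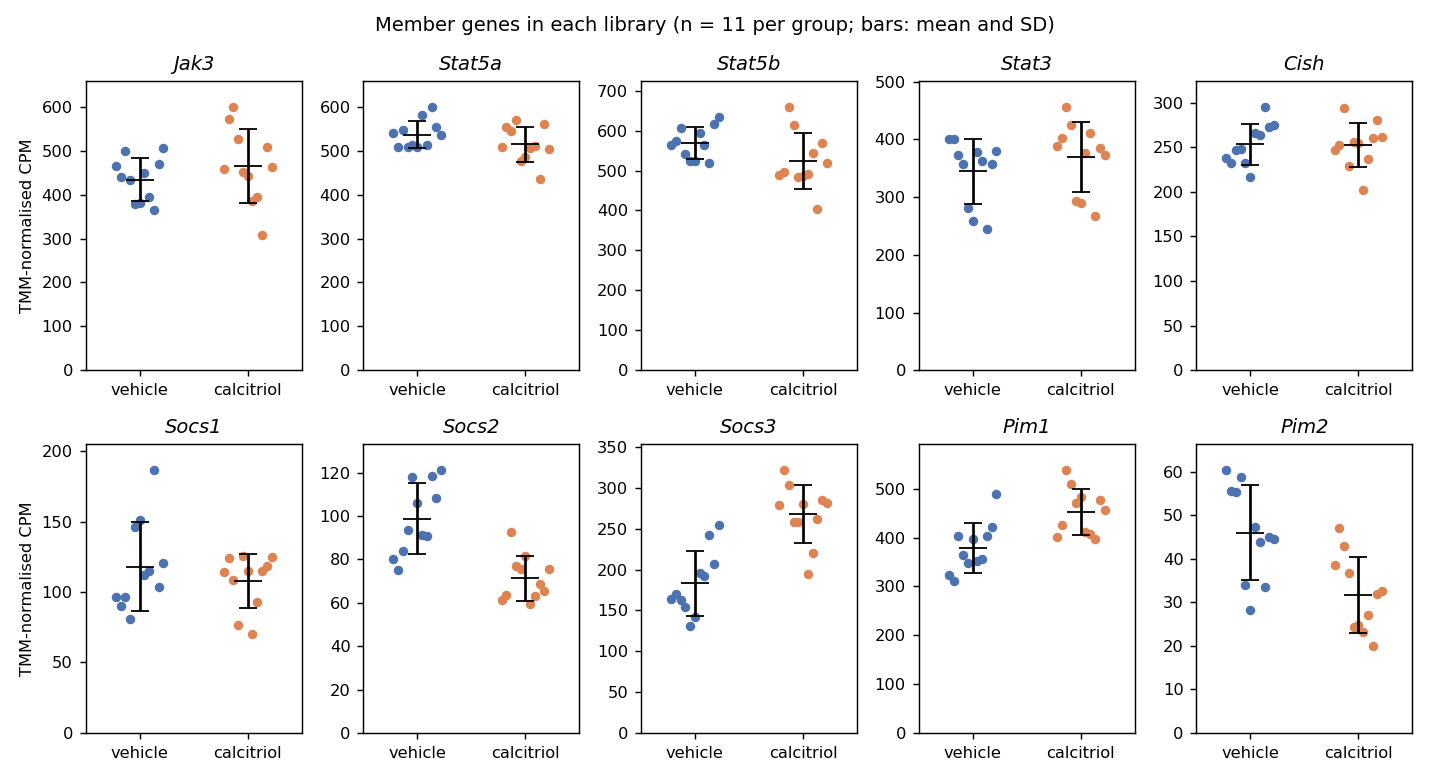
Each panel gives the TMM-normalised CPM (y axis, from 0) of 1 gene in each of the 11 vehicle and 11 calcitriol libraries (points), with the mean and SD (bars). Socs3 and Pim1 sit higher and Socs2 and Pim2 lower with calcitriol, and the groups overlap in all 10 panels.

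Jak3, the kinase attached to the common gamma chain (ENSMUSG00000031805, GRCm38 8:71676296-71690575, plus strand), ranged from 364 to 507 CPM with vehicle (median 440) and from 309 to 599 CPM with calcitriol (median 458). The calcitriol range reached beyond the vehicle range at both ends, with 4 libraries above it and 1 below. The means were 435 ± 49.6 and 465 ± 84.6 CPM (SD, n = 11 each), a log2 change of 0.10 ± 0.09 (SE; 95% interval -0.09 to 0.28; edgeR adjusted p = 0.457). Insl3, which lies on the same strand within the span of Jak3, was at 2.20 to 7.14 CPM.

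Stat5a, Stat5b and Stat3 are neighbours on chromosome 11. Stat5b (ENSMUSG00000020919, 100780731-100850724, minus strand) and Stat5a (ENSMUSG00000004043, 100859351-100885169, plus strand) lie 8626 bp apart. Stat3 (ENSMUSG00000004040, 100885098-100939540, minus strand) overlaps Stat5a by 72 bp at their 3′ ends, and how strand was used in the counting is not given in the sources used here, so reads in that overlap cannot be assigned with certainty.

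The STAT5 genes were the most evenly expressed members with vehicle, Stat5a with a coefficient of variation of 5.88% and Stat5b of 7.04%. Stat5a ranged from 507.5 to 599 CPM with vehicle (median 535) and from 435 to 570 CPM with calcitriol (median 509), where 5 libraries lay below every vehicle library and none above. Its means were 537 ± 31.6 and 514 ± 40.4 CPM (SD, n = 11 each), with a log2 change of -0.06 ± 0.05 (SE; 95% interval -0.16 to 0.03; edgeR adjusted p = 0.333).

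Stat5b ranged from 520 to 635 CPM with vehicle (median 565) and from 404 to 658 CPM with calcitriol (median 497). With calcitriol 7 libraries lay below every vehicle library and 1, replicate 3, above them all. The means were 569.5 ± 40.1 and 523 ± 70.0 CPM (SD, n = 11 each), a log2 change of -0.12 ± 0.06 (SE; 95% interval -0.25 to 0.00; edgeR adjusted p = 0.138). Stat5b was thus not called, but this depended on libraries and settings. Without calcitriol replicate 3 the change was -0.16 with an edgeR adjusted p of 0.0336. It was also called in the libraries at or above the median depth (-0.22, edgeR adjusted p = 0.0390). The same held with library totals only and with surrogate variables, as given at the end. With libraries that resembled one another summed, the change was -0.14 (edgeR adjusted p = 0.319).

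Stat3 ranged from 245 to 401 CPM with vehicle (median 363) and from 267 to 456 CPM with calcitriol (median 384). The spread had the same shape in both groups, with 3 libraries well below the other 8: vehicle replicates 5, 6 and 9 at 281, 258 and 245 CPM, and calcitriol replicates 5, 6 and 9 at 293.5, 290.2 and 267 CPM. The means were 345.0 ± 56.3 and 370 ± 60.5 CPM (SD, n = 11 each), a log2 change of 0.10 ± 0.10 (SE; 95% interval -0.10 to 0.30; edgeR adjusted p = 0.494).

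Cish encodes CIS, the classical STAT5-induced inhibitor (ENSMUSG00000032578, 9:107296026-107302784, plus strand). It ranged from 217 to 295 CPM with vehicle (median 248) and from 202 to 293 CPM with calcitriol (median 254). The ranges almost coincided, with 1 calcitriol library below every vehicle library and none above. The means were 253 ± 23.1 and 252 ± 24.6 CPM (SD, n = 11 each), a log2 change of -0.01 ± 0.06 (SE; edgeR adjusted p = 0.939), and the 95% interval of the fold, 0.916 to 1.08, bounds the difference. On the opposite strand, the antisense gene Gm17041 reached at most 1.27 CPM and the processed pseudogene Gm17040 at most 1.41 CPM.

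Socs1, an inhibitor that acts directly on JAK kinase activity (ENSMUSG00000038037, 16:10782240-10785536, minus strand), ranged from 80.6 to 187 CPM with vehicle (median 112) and from 70.1 to 125.5 CPM with calcitriol (median 115). The 3 highest vehicle values, 146, 151 and 187 CPM, were in replicates 5, 6 and 9, the libraries in which Stat3 was lowest. The means were 118 ± 31.6 and 108 ± 19.4 CPM (SD, n = 11 each), a log2 change of -0.13 ± 0.13 (SE; 95% interval -0.41 to 0.14; edgeR adjusted p = 0.497).

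Socs2, best known as an inhibitor of growth hormone signalling through STAT5 (ENSMUSG00000020027, 10:95385362-95417180, minus strand), fell with calcitriol. It ranged from 74.9 to 121 CPM with vehicle (median 93.7) and from 59.6 to 92.8 CPM with calcitriol (median 68.6). All 11 calcitriol libraries were below the vehicle median, and 6 were below every vehicle library. The means were 98.8 ± 16.4 and 71.2 ± 10.3 CPM (SD, n = 11 each), a log2 change of -0.47 ± 0.09 (SE), or 0.721-fold (95% interval 0.636 to 0.816; edgeR adjusted p = 0.000129).

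Socs3, an inhibitor of JAKs at the gp130 receptor chain and itself a STAT3 target (ENSMUSG00000053113, 11:117966079-117970047, minus strand), rose. It ranged from 131 to 254 CPM with vehicle (median 170) and from 195 to 322 CPM with calcitriol (median 280). Of the 11 calcitriol libraries, 9 were above every vehicle library and all were above the vehicle median. The means were 183 ± 39.6 and 268 ± 35.8 CPM (SD, n = 11 each), a log2 change of 0.54 ± 0.10 (SE), or 1.46-fold (95% interval 1.26 to 1.69; edgeR adjusted p = 0.000199).

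The size of the Socs3 difference varied with library depth, split at the median total count. In the 11 shallower libraries Socs3 was at 131 to 170 CPM with vehicle (154 ± 14.7, SD, n = 6) and at 258 to 322 CPM with calcitriol (289 ± 24.5, SD, n = 5), with no overlap. In the 11 deeper libraries it was at 192 to 254 CPM (218 ± 28.4, SD, n = 5) and 195 to 285 CPM (251 ± 35.9, SD, n = 6), with overlap. The log2 change was 0.91 (edgeR adjusted p = 8.7e-07) in the shallower and 0.20 (edgeR adjusted p = 0.186) in the deeper libraries. The difference between these changes, 0.71, had an edgeR adjusted p of 0.0101 over all genes, a call made for 0.37% of genes. This test was added after seeing the data and treated the libraries as independent. The values of the shallower and deeper vehicle libraries did not overlap, and those of the calcitriol libraries did. The same held for Cish, at 217 to 248 CPM in the shallower and 263 to 295 CPM in the deeper vehicle libraries. The depth groups nearly followed the order of deposit: the shallower libraries were replicates 1 to 6 and the deeper ones 7 to 11, except that calcitriol replicate 5 was among the deeper. Each depth group also held only a few sets of libraries that resembled one another, so depth, order of deposit and set cannot be told apart here.

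The other members showed no called difference between the depth groups, with edgeR adjusted p from 0.345 (Cish) to 0.825 (Socs1), but their changes lay on the same side. The log2 change was higher in the shallower than in the deeper libraries for 10 of 10 members, with a median difference of 0.27, against 50.6% of all genes and a median of 0.00; the members vary together from library to library and are not independent. Socs2 was at -0.29 (edgeR adjusted p = 0.148) in the shallower and -0.64 (edgeR adjusted p = 2.0e-05) in the deeper libraries, where the groups did not overlap (90.6 to 121 against 59.6 to 75.7 CPM). Pim2 did not overlap in the deeper libraries either (33.5 to 47.3 against 20.1 to 32.5 CPM). With 5 or 6 libraries per group, separation is easier than with 11. The share of all genes that separate within a depth group was not counted, for Socs3 above as well.

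**Figure D2:**
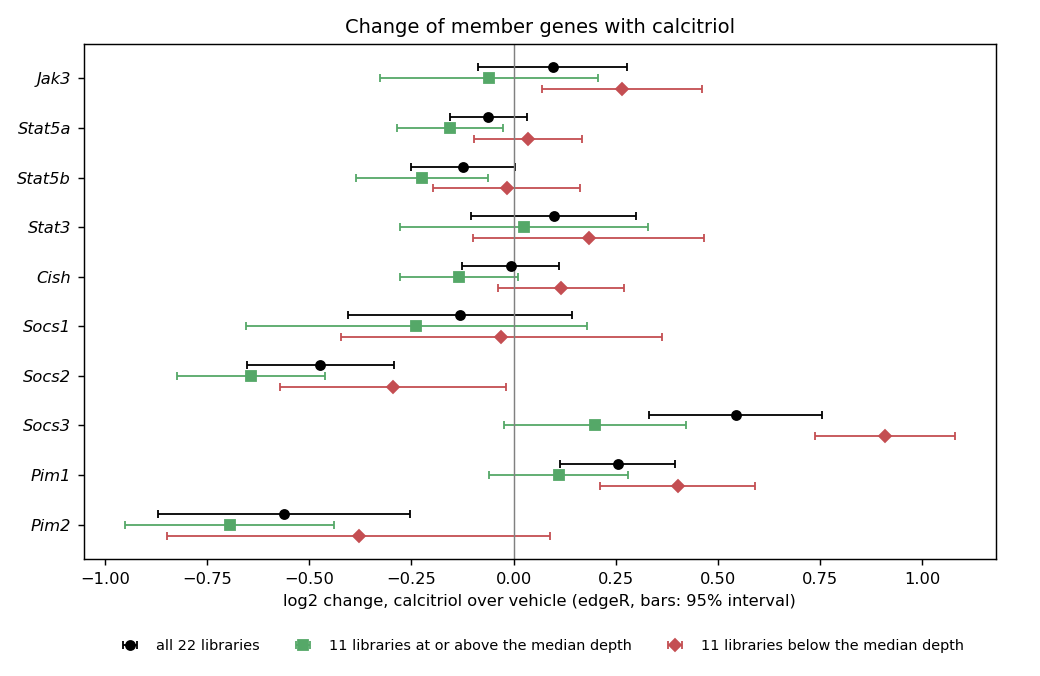
The log2 change with calcitriol over vehicle (x axis, points) with its 95% interval (bars) is given for each gene from all 22 libraries, from the 11 at or above the median depth and from the 11 below it. For each of the 10 genes the estimate from the shallower libraries lies to the right of that from the deeper ones, and the distance is greatest for Socs3 (0.91 against 0.20).

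Pim1 (ENSMUSG00000024014, 17:29490753-29496112, plus strand) rose with calcitriol. It ranged from 311 to 489 CPM with vehicle (median 364) and from 397 to 539 CPM with calcitriol (median 457). All 11 calcitriol libraries were above the vehicle median, but only 2 were above every vehicle library. The means were 379 ± 50.6 and 453 ± 47.8 CPM (SD, n = 11 each), a log2 change of 0.26 ± 0.07 (SE), or 1.19-fold (95% interval 1.08 to 1.32; edgeR adjusted p = 0.005). The change was 0.40 in the shallower libraries (edgeR adjusted p = 0.00561) and 0.11 in the deeper ones (edgeR adjusted p = 0.351). The antisense gene Gm26885 reached at most 0.801 CPM.

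Pim2 (ENSMUSG00000031155, X:7878262-7883432, plus strand) fell. It ranged from 28.3 to 60.4 CPM with vehicle (median 44.9) and from 20.1 to 47.0 CPM with calcitriol (median 32.0). Of the calcitriol libraries 10 of 11 were below the vehicle median and 5 below every vehicle library. The means were 46.0 ± 10.9 and 31.8 ± 8.76 CPM (SD, n = 11 each), a log2 change of -0.56 ± 0.15 (SE), or 0.677-fold (95% interval 0.547 to 0.838; edgeR adjusted p = 0.00537). Here the change was -0.69 in the deeper libraries (edgeR adjusted p = 0.000371) and -0.38 in the shallower ones (edgeR adjusted p = 0.282). When libraries that resembled one another were summed to 6 against 6 sets, 17.9% of genes were called; Socs2 and Socs3 were among them (edgeR adjusted p = 0.00477 and 0.0136), while Pim1 was at 0.23 and Pim2 at -0.57 with edgeR adjusted p of 0.0780 and 0.0666.

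On a scale corrected for exon length (RPKM, the scaled CPM per kilobase of exon), the only scale used here to compare genes, Pim1 was the most abundant member and Socs2 the least. The length was that of all annotated exons of a gene together, such as 9531 bp for Socs2 and 6419 bp for Cish. Which transcripts the cells made was not tested, so the order depends on this length. Before this correction Socs2 (98.8 CPM with vehicle) was above Pim2 (46.0 CPM). With vehicle the mean RPKM was 113 ± 15.0 for Pim1, 103 ± 7.24 for Stat5b, 81.2 ± 9.26 for Jak3, 75.3 ± 4.43 for Stat5a and 63.4 ± 13.7 for Socs3 (SD, n = 11). Below these were Socs1 at 40.6 ± 10.9, Cish at 39.4 ± 3.59, Stat3 at 36.2 ± 5.90, Pim2 at 16.5 ± 3.88 and Socs2 at 10.4 ± 1.72 RPKM. The neighbours Pim1 and Stat5b, Jak3 and Stat5a, Stat5a and Socs3, Socs1 and Cish, and Cish and Stat3 differed by less than the larger of their SDs. With calcitriol Socs3 was at 92.7 ± 12.4 RPKM, beside Stat5b at 94.4 ± 12.6 and Jak3 at 86.9 ± 15.8, and neighbours among these 3 differed by less than the larger SD. Pim1, at 135 ± 14.2, was the highest, and Pim2, at 11.4 ± 3.14, and Socs2, at 7.47 ± 1.08 RPKM, the lowest.

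Ratios between genes within a library do not depend on how libraries are scaled. The 6 log2 ratios below were compared with two-sided permutation tests over libraries (100000 resamples, smallest possible p 2e-05) and adjusted over the 6. The Socs3 to Socs1 ratio was 0.65 ± 0.42 with vehicle and 1.33 ± 0.19 with calcitriol (SD, n = 11 each), a difference of 0.68 ± 0.14 (SE; permutation adjusted p = 4e-05), with 10 of 11 calcitriol libraries above every vehicle library. The Cish to Socs2 ratio went from 1.37 ± 0.23 to 1.83 ± 0.17, a difference of 0.46 ± 0.09 (permutation adjusted p = 4e-05), again with 10 of 11 above. The Pim1 to Pim2 ratio went from 3.07 ± 0.46 to 3.87 ± 0.37, a difference of 0.81 ± 0.18 (permutation adjusted p = 0.00039), with 7 of 11 above. These ratios contain members already called, so they restate those changes without library scaling. The permutations treated libraries as independent, although some resembled one another in sets. Under the 25 alternatives run for ratios, the highest permutation adjusted p was 0.00433 for Socs3 to Socs1 and for Cish to Socs2. It was 0.0195 for Pim1 to Pim2.

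Among the STATs, the Stat3 to Stat5b ratio went from -0.74 ± 0.19 to -0.51 ± 0.15 (SD, n = 11 each), a difference of 0.23 ± 0.07 (SE; permutation adjusted p = 0.00518), although neither gene was called alone; 5 of 11 calcitriol libraries lay above every vehicle library. The Stat5a to Stat5b ratio differed by 0.07 ± 0.05 (permutation adjusted p = 0.184), and by 0.097 (permutation adjusted p = 0.0359) without vehicle replicate 9. Il2ra, the IL-2 receptor alpha chain and a STAT5 target like Cish, rose while Cish was not called, and the Cish to Il2ra ratio went from -1.72 ± 0.15 to -2.17 ± 0.16, a difference of -0.45 ± 0.07 (permutation adjusted p = 4e-05). In all 11 calcitriol libraries this ratio was below every vehicle library. The ratio contains the called gene Il2ra (log2 change 0.45 ± 0.04, SE), so it restates that change without library scaling. How often ratios of other genes separate the groups was not counted. Under the same 25 alternatives the highest permutation adjusted p was 0.0442 for Stat3 to Stat5b and 0.00433 for Cish to Il2ra.

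**Figure D3:**
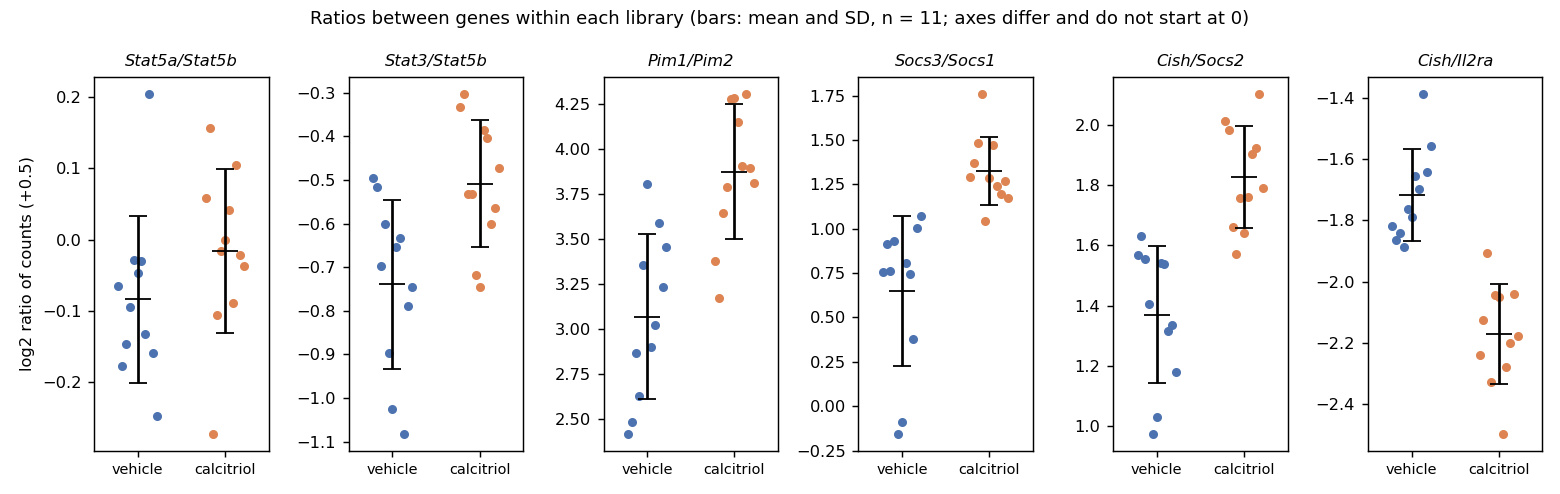
Each panel gives a log2 ratio of counts between 2 genes (y axis, own scale in each panel) in each of the 11 vehicle and 11 calcitriol libraries (points), with the mean and SD (bars). The Cish to Il2ra ratio, which contains the called gene Il2ra, separates the groups. The Stat5a to Stat5b ratio overlaps broadly.

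After removal of the group means, Cish and Socs3 ran together across the 22 libraries: among the 9901 genes averaging 5 CPM or more, each had its highest Pearson r with the other, 0.82 over 22 libraries and 0.86 over the 18 without the libraries that stood apart. Next to Cish came Dpf2 (0.75) and Ado (0.71), and next to Socs3 came Camkk1 (0.79) and Phf1 (0.78), none of which was called with calcitriol in all 22 libraries. Camkk1 was called in the deeper libraries (-0.48, edgeR adjusted p = 0.0111) and Phf1 in the shallower ones (0.40, edgeR adjusted p = 0.0381). Pim1 was most like Ldb1 (0.91), a LIM-domain cofactor, Itgb7 (0.90), the integrin beta 7 chain, and Ahcyl2 (0.87). Of these, Ldb1 (log2 change 0.20 ± 0.06, SE, edgeR adjusted p = 0.0103) and Itgb7 (0.48 ± 0.08) rose, and Ahcyl2 (0.21 ± 0.09, SE, edgeR adjusted p = 0.0928) was not called. The call of Ldb1 was lost in the summed sets (edgeR adjusted p = 0.0840) and in the deeper libraries (edgeR adjusted p = 0.218), and Ahcyl2 was called without vehicle replicate 11 (edgeR adjusted p = 0.0363). These correlations are descriptions without a p, since libraries share depth and resemble one another in sets. Removal of the group means leaves in the step between shallower and deeper vehicle libraries that Cish and Socs3 share.

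Among the members the highest r over 22 libraries was that of Pim2 with Stat3 (0.83), followed by Cish with Socs3, Pim2 with Jak3 (0.80) and Stat5b with Jak3 (0.79). Over the 18 libraries Stat5b with Jak3 came first (0.90), before Cish with Socs3 (0.86), Stat3 with Stat5b and Pim2 with Stat3 (both 0.84). The lowest was that of Socs1 with Stat3, at -0.63. Replicates 5, 6 and 9 of both groups carried part of this pattern: Pim2 was at 33.9, 28.3 and 33.5 CPM in those vehicle libraries, the 3 lowest, and at 24.3, 24.8 and 20.1 CPM in those calcitriol libraries, among the 4 lowest. Pim1 and Pim2 did not run together over 22 libraries (-0.01), and their r was 0.39 over 18.

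**Figure D4:**
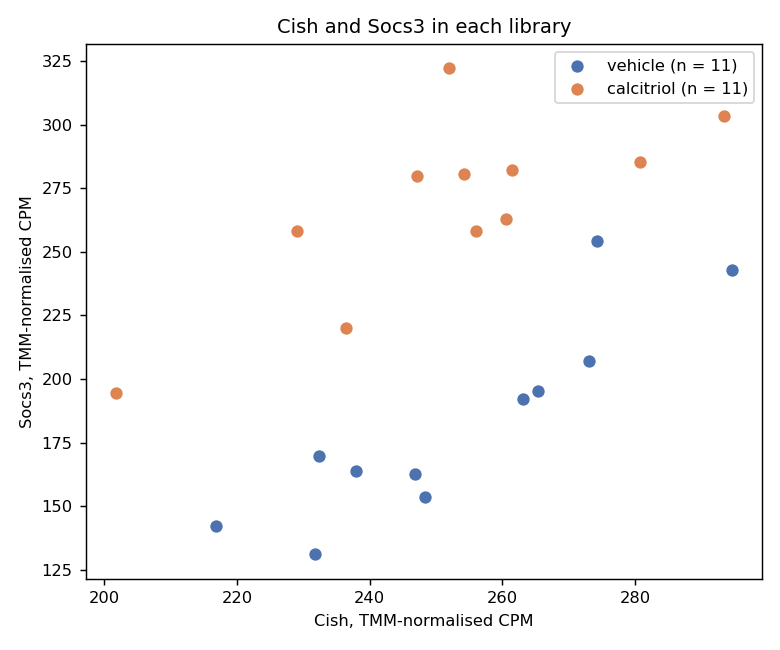
Each point is a library, with Cish (x axis) and Socs3 (y axis) in TMM-normalised CPM. Within each group Socs3 is higher where Cish is higher, and the calcitriol points (195 to 322 CPM of Socs3) lie above the vehicle points (131 to 254 CPM) at like levels of Cish.

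The other genes of the pathway were read from 8 lists that share some genes. Over all tested genes 31.5% were called, the share to set beside those below. The lists are short, with 5 to 17 tested genes each, and were chosen with earlier results of these data known. Whether the share of any list differs from that of all genes was not tested. Of 7 other JAK and STAT genes 2 rose and 2 fell (57.1% called, median log2 change -0.06). Jak2, a kinase of gp130 and beta common receptors, had the largest change among them, from 1774 ± 309 to 2764 ± 175 CPM (log2 0.64 ± 0.07, SE, edgeR adjusted p = 1.22e-07), with all 11 calcitriol libraries above every vehicle library. Jak1 rose by 0.18 ± 0.05, while Stat4, the STAT of IL-12, fell by 0.45 ± 0.14 and Stat2, a STAT of type I interferon, fell by 0.16 ± 0.06 on the log2 scale. In the summed sets the calls of Jak1, Stat4 and Stat2 were lost (edgeR adjusted p = 0.0519, 0.136 and 0.194), that of Stat4 also without the 4 libraries that stood apart (edgeR adjusted p = 0.0810), and that of Stat2 was lost without any 1 of 9 single libraries (edgeR adjusted p of 0.0543 to 0.082): calcitriol replicates 4, 7, 8, 10 and 11 and vehicle replicates 3, 4, 9 and 11.

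Of 5 other SOCS and PIM genes 1 rose and 3 fell (80% called, median -0.23). Socs6 rose from 17.8 to 21.2 CPM (0.26 ± 0.07), Socs7 fell by 0.23 ± 0.06, Socs5 by 0.25 ± 0.08 and Socs4 by 0.18 ± 0.06 on the log2 scale. Pim3, the remaining PIM kinase gene, was at 76.3 and 65.2 CPM (-0.23 ± 0.09, SE, edgeR adjusted p = 0.0571). The Socs4 call was lost in the summed sets (edgeR adjusted p = 0.146), without the 4 libraries that stood apart (edgeR adjusted p = 0.0718) and without any 1 of 7 single libraries, calcitriol replicates 5, 6, 7, 8 and 10 and vehicle replicates 2 and 6 (edgeR adjusted p of 0.0507 to 0.0658), and that of Socs5 in the summed sets (0.138).

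Of 15 phosphatases, adaptors, PIAS proteins and subunits of the SOCS-box ubiquitin ligase, 1 rose and 5 fell (40% called, median -0.08). Ptpn6, which encodes the phosphatase SHP-1, fell from 212 to 176 CPM (-0.27 ± 0.04, SE, edgeR adjusted p = 2.67e-06). Dusp3, a dual-specificity phosphatase gene, fell by 0.58 ± 0.12 and Sh2b3, which encodes the adaptor LNK, by 0.39 ± 0.09 on the log2 scale. Cul5, the cullin scaffold of the ligase, rose from 62.6 to 76.5 CPM (0.29 ± 0.06).

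Upstream of STAT5, 6 of 13 tested ligand and receptor genes rose and 4 fell (76.9% called, median 0.15). The 6 that rose encode receptor chains and the 4 that fell encode ligands. Among those that rose were Il2rg, the common gamma chain, from 175 to 276 CPM (0.65 ± 0.04, SE, edgeR adjusted p = 1.96e-12), Il2ra from 831 to 1132 CPM (0.45 ± 0.04) and Il4ra from 1276 to 1884 CPM (0.56 ± 0.07). Il2rb, the beta chain of the IL-2 receptor, was at 762 and 777 CPM (0.03 ± 0.06, SE, edgeR adjusted p = 0.762). Il2, the ligand, fell from 4.98 ± 1.70 to 0.718 ± 0.272 CPM (-2.78 ± 0.24, SE, edgeR adjusted p = 3.02e-10).

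Upstream of STAT3, 7 of 11 tested genes rose and 1 fell (72.7% called, median 0.26). Il10, a ligand that signals through STAT3, rose from 191.5 to 520.5 CPM (1.45 ± 0.11, SE, edgeR adjusted p = 4.81e-10). The receptor genes Il21r (0.26 ± 0.06) and Il6st (0.33 ± 0.08), the latter encoding gp130, rose too. Il22 fell by 2.44 ± 0.55 on the log2 scale. Its level was low and uneven, at 8.50 ± 7.41 CPM with vehicle and 1.72 ± 1.85 CPM with calcitriol (SD), with a lowest value of 0.

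Of 17 tested textbook STAT5 targets 6 rose and 5 fell (64.7% called, median 0.04). Prdm1, the gene of the repressor BLIMP-1, rose from 10.1 to 30.9 CPM (1.61 ± 0.14, SE, edgeR adjusted p = 2.07e-09). The cyclin genes Ccnd2 and Ccnd3 fell by 0.48 ± 0.05 and 0.49 ± 0.05, and Bcl2l1, the gene of the survival protein BCL-XL, fell by 0.68 ± 0.09 on the log2 scale (edgeR adjusted p = 9.06e-07). Of 13 STAT3 targets 6 rose and 2 fell (61.5% called, median 0.23). The transcription factor gene Maf (0.88 ± 0.07) and the costimulatory receptor gene Icos (0.81 ± 0.15) rose, and Fos fell by 0.76 ± 0.16 on the log2 scale.

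Of 15 substrates and partners of PIM kinases 2 rose and 3 fell (33.3% called, median -0.05), close to the share of all genes. Map3k5, the gene of the stress kinase ASK1, rose from 105 to 133 CPM (0.34 ± 0.04, SE, edgeR adjusted p = 8.62e-08), and Foxo1 rose from 161 to 200 CPM (0.31 ± 0.07). Cdc25a, a cell cycle phosphatase gene, fell by 0.33 ± 0.09 and Cdkn1a, the gene of the inhibitor p21, fell by 0.31 ± 0.10 on the log2 scale; both calls were lost in the summed sets (edgeR adjusted p = 0.106 and 0.0658). That of Cdc25a was also lost in the deeper libraries (-0.26, edgeR adjusted p = 0.260), and that of Cdkn1a without the filter on low counts (edgeR adjusted p = 0.0599) and in the shallower libraries, where it was at -0.10 (edgeR adjusted p = 0.712) against -0.51 in the deeper ones.

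Several other calls in these lists did not hold in the 11 shallower libraries alone. Fos was at -0.36 there (edgeR adjusted p = 0.250) and at -1.08 in the deeper libraries, and Stat2 was at -0.05 (edgeR adjusted p = 0.708). Jak1, Stat4, Socs4, Socs5, Socs6, Socs7, Dusp3, Sh2b3, Foxo1 and Il22 were not called there either, with edgeR adjusted p from 0.0746 (Dusp3) to 0.304 (Socs7). In the deeper libraries Socs4 and Socs5 were not called (edgeR adjusted p = 0.302 and 0.110). With library totals only the calls of Jak1 and of Ldb1, named above, were lost (edgeR adjusted p = 0.0670 and 0.0749). Without the filter on low counts those of Stat2 and Socs4 were lost (edgeR adjusted p = 0.0750 and 0.104).

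**Figure D5:**
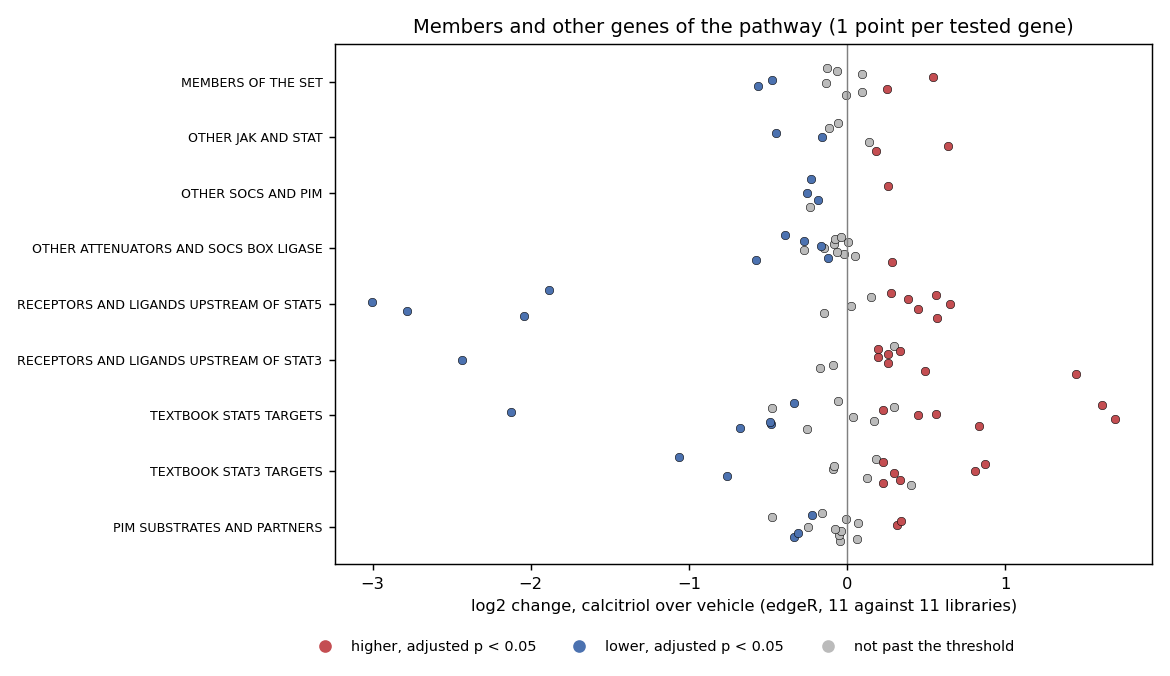
Each point is a tested gene, placed by its log2 change with calcitriol over vehicle (x axis) in its list (y axis); colours mark genes called higher, called lower and not called. Points lie on both sides of 0 in every list, and Il2 (-2.78) and Il10 (1.45) are among several points far out in the lists of ligands and receptors.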

How the data were processed

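RNA was measured in 22 libraries of TH2 cells, 11 per group, grouped by the treatment label. The deposited values are whole-number counts per gene, made by the authors with STAR 2.7.10a and HTSeq 0.13.5 on GRCm38, per the submitters' processing notes; neither the annotation release nor the strand setting is given there. Of 49671 gene rows, 49412 were matched to a symbol in GENCODE M21, which also gave positions and exon lengths. Counts were tested with edgeR 4.0.16 (filterByExpr, TMM, robust quasi-likelihood test, Benjamini-Hochberg over 11905 genes), in R 4.3.3 and checked on simulated data. Tested genes held at least 99.7% of each library's counts. Ratios used counts + 0.5 and likeness used log2(CPM + 0.5).

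The alternatives were DESeq2 1.42.0, limma-voom 3.58.1, other scalings and filters, sva 3.50.0 (5 surrogate variables), each library left out, the 4 libraries apart left out, libraries that resembled one another summed, and a split at the median depth. The interaction of treatment with depth was added after seeing the data. The members and lists were chosen with earlier results of these data known. Named were the members, Il2, Il2ra, Il2rb, Il2rg, Bcl2l1, Prdm1, up to 4 genes of smallest p per list and the 3 genes most like Cish, Pim1 and Socs3; markers and genes overlapping a member are given for context, and 1 gene that this rule selects is not reported here.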

Additional observations from a re-analysis of the deposited data

How the results depend on the processing

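Calls of Socs2, Socs3, Pim1 and Pim2 were kept in every fit with 1 library left out and without the 4 libraries that stood apart. All values below are log2 changes unless named as counts. The number of called genes was 3755 in the main fit over all 22 libraries. It was 2357 with sets summed, 1766 below the median depth, 5442 with surrogate variables and 3467 to 3806 with 1 library left out. The number of called members was 2 with sets summed, 2 below the median depth, 7 with surrogate variables and 4 to 5 with 1 library left out. With sets summed Pim1 was at 0.23 and Pim2 at -0.57, no longer called. At or above the median depth Pim1 (0.11) and Socs3 (0.20) were not called, Stat5b was (-0.22), and Jak3 (-0.060), Ado (-0.016), Il2rb (-0.093) and Phf1 (-0.16) changed sign. Below it Pim2 (-0.38) and Socs2 (-0.29) were not called, and Stat5a (0.035), Cish (0.12), Camkk1 (0.15) and Dpf2 (0.12) changed sign. With surrogate variables Stat3 (0.083), Stat5a (-0.080) and Stat5b (-0.15) were called, and with library totals only Stat5a (-0.13) and Stat5b (-0.20) were, while Ado (-0.055) and Il2rb (-0.044) changed sign; that scaling moved the median of all genes by -0.07. Ado was at -0.0020 with sets summed and -0.0028 without the 4 libraries. With 1 library left out Cish ranged from -0.031 to 0.022, Stat5b from -0.16 to -0.090, Ado from -0.0063 to 0.050, Il2rb from -0.00089 to 0.056 and the Stat5a to Stat5b ratio from 0.050 to 0.097, called without vehicle replicate 9. For the 40 other named genes 1335 of 1400 alternatives kept direction and call, 48 lost the call, 4 gained it and 13 changed sign. The causes were not tested. No paired analysis was possible because the labels carry no replicate numbers, and the likeness of libraries across the groups is known only from their values. The lowest count of a member in a library was 127 (Pim2), and the split at the median depth changed the calls of members as given above.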
